A study of Mus musculus with 4 samples.

Results

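The heat shock and DnaJ chaperone genes were examined in control and Ythdf2-knockdown mouse embryonic stem cells (ESCs). They were taken as the rows of the count table named Hspa, Hspb, Hspd, Hspe, Hspf, Hsph, Hsp90, Dnaja, Dnajb or Dnajc followed by a number, together with the heat shock factors Hsf1 and Hsf2. This rule gave 90 of 49997 rows. Of these, 74 were genes of the chaperone families or heat shock factors, together called chaperone genes here, and 16 were pseudogene or retrogene rows. By class there were 11 HSP70 genes, 3 HSP110 genes, 3 HSP90 genes, 2 genes of the HSP60 and HSP10 pair, 8 small heat shock protein genes, 4 DNAJA, 13 DNAJB and 28 DNAJC genes, and 2 heat shock factors.

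RNA-seq was performed on cells of the E14 line, a pluripotent line from the early mouse embryo, in 2 shScramble and 2 shYthdf2 libraries. Per the study's methods all the cells carried a tdTomato transgene under the MERVL promoter, a short hairpin RNA (shRNA) vector delivered by lentivirus that also encodes TagRFP and puromycin resistance, and had been selected with puromycin into stable lines. Both groups were grown on gelatin with KnockOut Serum Replacement and leukemia inhibitory factor, and the difference between them was the hairpin, a scrambled sequence or a sequence against Ythdf2. Which of the study's hairpins against Ythdf2 was used is not given in the sources used here, and the methods describe the 2 libraries of a group as independent biological replicates, without saying whether they came from separate infections.

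Chaperones bind proteins that are unfolded or only partly folded. HSP70 proteins do so in cycles of ATP hydrolysis that are started by J-domain proteins (the DNAJ families) and reset by nucleotide exchange factors such as the HSP110 proteins, HSP90 proteins act later on signalling proteins, HSP60 with HSP10 folds proteins inside mitochondria, and small heat shock proteins hold unfolded proteins without ATP. HSF1 is the transcription factor that switches on many of these genes under heat or proteotoxic stress, and several cytosolic chaperones are abundant in ESCs without any stress. YTHDF2 is a cytoplasmic reader of N6-methyladenosine (m6A) in mRNA and is known for promoting the decay of the mRNAs it binds.

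The targeted gene was checked first. Ythdf2 reads numbered 3365 and 2760 with shScramble against 1086 and 1082 with shYthdf2, so that 34.2% of the control level was left (log2 fold change -1.55, SE 0.11, edgeR adjusted p = 6.9e-04). The libraries held between 31113006 and 36422510 counted reads. Of the 8 ESC markers checked, all were present, with Pou5f1 at 1069 and 1005 CPM (read counts scaled to a common library total, with TMM factors) against 1221 and 1056. Of these markers 6 had a negative log2 fold change (median -0.13), where 50.2% of all genes tested had a positive one. Below both controls were 4, where 25.5% of all genes tested were. Tdgf1 fell at the adjusted threshold (log2 fold change -0.47, edgeR adjusted p = 0.0411), and Nanog was at -0.41 (adjusted p = 0.0594). Their part in the chaperone values was not tested. The 8 fibroblast markers summed to 22.4 and 28.7 against 12.9 and 22.6 CPM, mostly Thy1 and Pdgfrb, with Dcn at 0 reads in all 4 libraries, and the 6 primitive endoderm markers summed to 10.1 and 10.7 against 15.5 and 9.86 CPM. The 15 markers of 2C-like cells, a rare state of ESC cultures that resembles the 2-cell embryo, summed to 51.8 and 79.9 CPM in shScramble and 102 and 263 CPM in shYthdf2. Of the 14 tested, 3 were higher at the adjusted threshold (Zscan4a, Usp17la and Usp17le), where 2.43% of all genes tested were. The second shYthdf2 library thus held more than the first, and the part of these cells in the chaperone values was not tested.

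The promoters of several members carry the sequences that the heat shock and the endoplasmic reticulum (ER) stress responses are known to read, and these are shown because they define the textbook wiring against which the expression values can be set. Stretches were taken from the RefSeq promoter set of GRCm38.p6, the assembly that mm10 names, which covers 250 bases before to 50 bases after each annotated start. Of the 74 chaperone genes, 59 were found in it, with 76 promoters. Letters in capitals mark the element and each stretch is written 5′ to 3′ on the strand of its gene. The heat shock element is built of inverted short units, and was searched as its 2-unit forms GAANNTTC and TTCNNGAA and as the 3-unit form in which these share their middle unit. The Hspd1 and Hspe1 genes lie head to head on chromosome 1 and share a stretch with 2 overlapping 3-unit matches, printed for each on its own strand.
Hspd1 (chr1:55088054-55088081, minus strand, element from -144 to -127): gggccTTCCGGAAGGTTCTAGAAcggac
Hspe1 (chr1:55088054-55088081, plus strand, element from -89 to -72): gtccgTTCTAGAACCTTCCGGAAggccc
Dnajb6 (chr5:29735847-29735869, plus strand, element from -46 to -34): tccgaGAATCTTCCGGAAcgcta
Hspa1a (chr17:34972248-34972265, minus strand, 2-unit form from -104 to -97): tgctgGAAGATTCctggc
Hspa1b (chr17:34959330-34959347, minus strand, 2-unit form from -104 to -97): tgctgGAAGATTCctggc
The stretches of Hspa1a and Hspa1b, a pair of near-identical stress-inducible HSP70 genes, were the same in all 18 bases shown.

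The ER stress element, searched as CCAAT and CCACG set 9 bases apart on either strand, was present upstream of 3 ER chaperone genes. These were Hspa5, the HSP70 of the ER lumen, Hsp90b1, its HSP90, and Dnajc3, a J-protein of the lumen, and Hsp90b1 carried a pair of elements in opposite orientation.
Hspa5 (chr2:34772020-34772048, plus strand, element from -65 to -47): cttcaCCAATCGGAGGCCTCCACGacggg
Dnajc3 (chr14:118937822-118937850, plus strand, element from -105 to -87): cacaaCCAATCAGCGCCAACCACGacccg
Hsp90b1 distal (chr10:86705633-86705661, minus strand, element from -212 to -194): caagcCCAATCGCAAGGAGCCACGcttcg
Hsp90b1 proximal (chr10:86705528-86705556, minus strand, element from -107 to -89): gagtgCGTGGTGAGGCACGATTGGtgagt
The ER stress element was found in 3.95% of the 76 member promoters and in 0.119% of all 32851 promoters. The 3-unit heat shock element was found in 7.895% of member promoters (4 genes: Dnajb6, Hspd1, Hspe1 and, after its start, Hsph1) and in 0.603% of all promoters. For GAANNTTC the shares were 21.1% and 7.86%, and for TTCNNGAA 10.5% and 8.52%, each 3-unit match being counted in the 2-unit forms as well. Hspd1 and Hspe1 are counted separately although they share their element, and Dnajb6 and Hsph1 are each counted at overlapping promoters that hold the same match. Per gene, the 3-unit share was 6.78% of 59 member genes and 0.662% of all 27025 genes. It was 23.7% and 9.04% for GAANNTTC, 10.2% and 9.60% for TTCNNGAA, and 5.09% and 0.137% for the ER stress element. A match describes the letters in this window and says nothing of whether a factor was bound in these cells. Letters were matched exactly, so a gene without a match may still hold an element with other letters or outside the window.

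To ask how the chaperone network of ESCs responded to the depletion of YTHDF2, each member was compared between the groups in a fit over the whole table. Of the 90 rows, 73 had enough reads to be tested, 69 of the 74 chaperone genes and 4 of the 16 pseudogene rows. Of the other 17 rows, 7 had no reads in any library, all of them pseudogene rows, and Hspb3, Hspb9, Dnajb7, Dnajb8 and Dnajc5b were the chaperone genes left out. No member passed the adjusted threshold of 0.05 in edgeR, 0 higher and 0 lower, where 2.43% of all 18341 genes tested were higher and 1.49% lower. At an unadjusted p under 0.05 there were 8 members higher and 3 lower of 73, where 11.0% and 9.80% of all genes tested were. DESeq2 called 3 members higher and 2 lower of the 71 to which it gave an adjusted p, beside 5.55% and 4.22% of all genes, and limma-voom called 0 and 0 of 73, beside 2.01% and 1.38%. Under the study's own criteria in DESeq2 (unadjusted p of at most 0.05 and at least a doubling or halving) 0 of 83 member rows with a read were higher and 0 lower, beside 1.63% and 1.25% of all genes.

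The members as a whole lay close to no change. Their median log2 fold change was 0.03, beside 0.0019 for all genes tested, and their median size of change in either direction was 0.16, beside 0.25. For 34 of the 73 the 95% confidence interval lay wholly within -0.5 to 0.5. Of the 28 tested members with a mean of at least 50 TPM (reads divided by gene length and scaled to a common library total, so that genes can be compared), 26 had an absolute log2 fold change under 0.3. These counts were not made for other genes of like level, and the medians were set against all genes whatever their level. They do not show that the members changed less than other genes of like level. In CPM, both shYthdf2 libraries stood above both shScramble libraries in 19 members, where 26.2% of all genes tested did. In 15 members both stood below, where 25.5% of all genes did. These measurements are of bulk RNA, in which fewer cells of a type and less RNA per cell cannot be told apart.

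**Figure D1:**
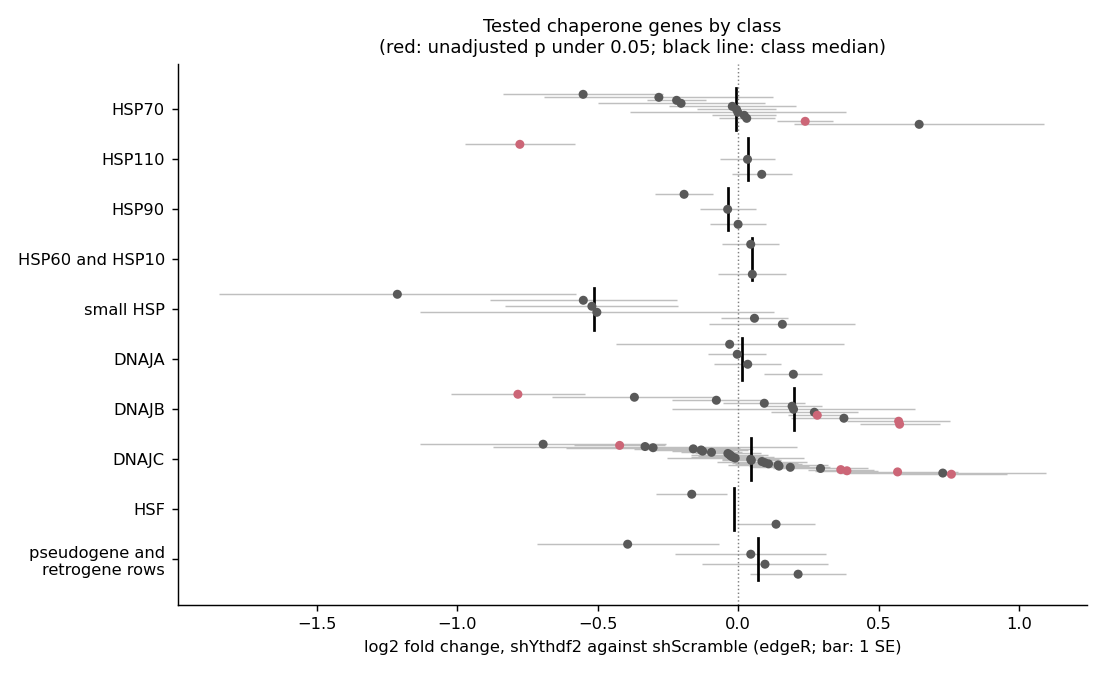
Log2 fold change of the 73 tested members in shYthdf2 against shScramble cells (x axis, points with 1 SE from edgeR), grouped by chaperone class on the y axis, with red points at an unadjusted p under 0.05 and black lines at class medians. Most classes centre near 0, the 11 red points are spread over HSP70, HSP110, DNAJB and DNAJC, and the small heat shock class has its median at -0.51 (-0.24 with a filter at a mean of 1 CPM).

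The chaperones were dominated by a few transcripts. Members together held 2.42% and 2.48% of all transcripts (by TPM) with shScramble and 2.28% and 2.28% with shYthdf2. The 10 most abundant members made up between 86.1% and 87.8% of that. Without Hspa8 and Hsp90ab1 the members held 1.29% and 1.32% in shScramble and 1.30% and 1.32% in shYthdf2. These transcripts were set aside because they were abundant and lower in both knockdown libraries, so this describes where the difference in share lay and is no test of it. With 2 libraries against 2, the smallest p of an exact permutation is 0.333, and no other test of the share was run.

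**Figure D2:**
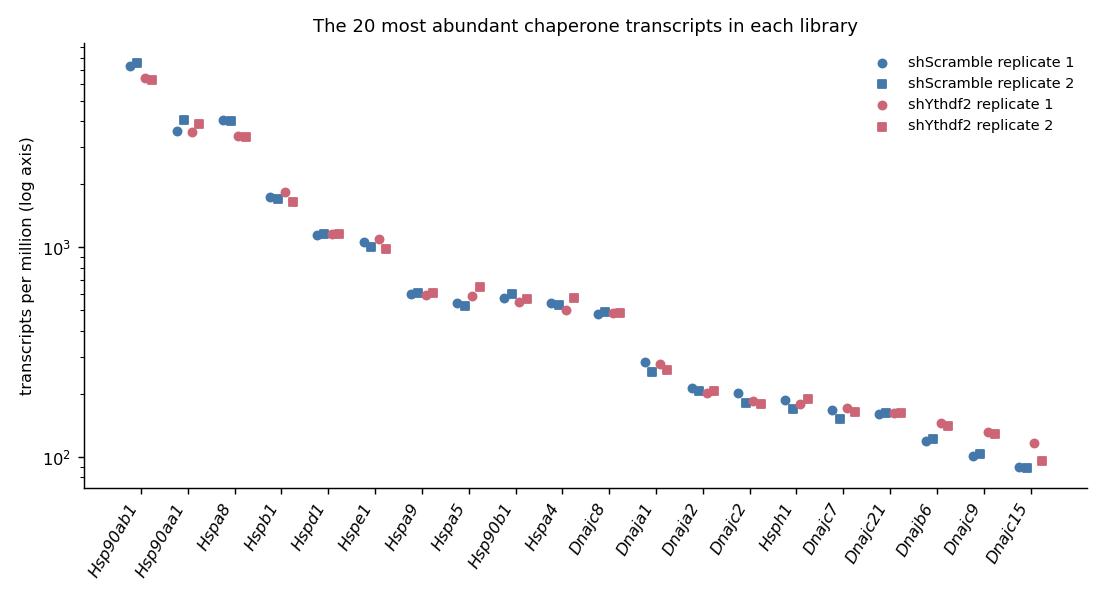
Level of the 20 most abundant members in each of the 4 libraries, in TPM on a log axis, with shScramble in blue and shYthdf2 in red, circles for replicate 1 and squares for replicate 2. Hsp90ab1 and Hspa8 sit lower in both red libraries, and for most other genes the red and blue points overlap.

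In the HSP70 class, Hspa8 (chr9:40801276-40805202), the constitutive HSP70 of the cytosol, was by far the highest, with 4024 and 4018 TPM in shScramble and 3380 and 3345 TPM in shYthdf2. Both knockdown libraries were below both controls, with a log2 fold change of -0.22 (SE 0.10, 95% interval -0.45 to 0.01) and an edgeR adjusted p of 0.266. Without the first shYthdf2 library it was -0.30 (adjusted p = 0.0381), and without any other single library it did not pass. The mitochondrial HSP70 gene Hspa9 stood at 599 and 606 against 591 and 608 TPM, and its groups overlapped (log2 fold change 0.03, SE 0.10). Hspa5 (chr2:34772090-34776529), which encodes the ER chaperone BiP, had 542 and 524 TPM in shScramble and 583 and 645 TPM in shYthdf2. It was higher in both knockdown libraries by 0.24 on the log2 scale (SE 0.10, unadjusted p = 0.0383, edgeR adjusted p = 0.21), and it passed the adjusted threshold under 0 of 13 alternative settings.

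The balance between these HSP70 genes can be read within a library, where scaling between libraries does not enter. The ratio of Hspa5 to Hspa8 in TPM was 0.135 and 0.130 in shScramble and 0.172 and 0.193 in shYthdf2. The ratio of Hspa8 to Hspa9 was 6.72 and 6.63 against 5.72 and 5.50. In each case the groups did not overlap and lay apart by more than the gap within either group. Of the 150-base windows of Hspa8, 22.8% also occur in other genes. Reads left out of Hspa8 for this could change its level and the size of both ratios in every library. The ratios were chosen with these values known, so no test is given.

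The stress-inducible HSP70 genes were low. Hspa1a had 72 and 124 counted reads in shScramble and 62 and 109 in shYthdf2, a log2 fold change of -0.28 with an SE of 0.41. Hspa1b had 313 and 320 reads against 157 and 295, with both knockdown libraries below both controls (log2 fold change -0.55, SE 0.28, edgeR adjusted p = 0.311), and without the second shYthdf2 library it passed the adjusted threshold (log2 fold change -1.04, adjusted p = 0.0165), while without the first it was at -0.19 (adjusted p = 0.833). These levels depend on the counting. Of the 150-base windows of Hspa1a, 38.1% also occur in Hspa1b, and reads placed at several positions were not counted, although how many were lost was not tested. Both genes are also annotated on 3 extra contigs besides chromosome 17, which makes their deposited lengths 11156 and 11208 bases where the chromosome holds 2798 and 2810. With the chromosome length their mean levels were 2.51 TPM for Hspa1a and 7.31 TPM for Hspa1b, against 3692 TPM for Hspa8. Of the other HSP70 genes, Hspa14, which acts at the ribosome, was at 76.8 and 69.8 against 72.9 and 72.1 TPM, and the remaining 5 (Hspa2, Hspa12a, Hspa12b, Hspa13 and Hspa1l) were below 20 TPM in every library and did not pass the test.

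The HSP110 class, relatives of HSP70 that release its ADP, held a pair of abundant genes with overlapping groups and a minor gene that was lower in both knockdown libraries. Hspa4 stood at 544 and 532 TPM in shScramble against 505 and 570 in shYthdf2 (log2 fold change 0.03, SE 0.10), and Hsph1 at 187 and 170 against 180 and 190 TPM (0.08, SE 0.11). Hspa4l (chr3:40744500-40796103), a relative of Hspa4 known from testis, had 602 and 545 reads in shScramble and 388 and 304 in shYthdf2, which is 16.7 and 17.3 against 11.3 and 8.49 CPM. It was lower in both knockdown libraries by a margin wider than the gap within either group, with a log2 fold change of -0.78 (SE 0.20, 95% interval -1.22 to -0.34). The adjusted p was 0.0601 in edgeR, 0.00721 there with no filter, 0.0104 in DESeq2 and 0.0537 in limma-voom, so that the call turned on the tool and the filter. It passed in edgeR without shScramble replicate 1 (-0.80, adjusted p = 0.032) and without shYthdf2 replicate 1 (-1.0, adjusted p = 0.00577). At a mean of 3.58 TPM on its chromosome length it was a minor transcript beside the 538 TPM of Hspa4.

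Of the HSP90 genes, Hsp90ab1, the constitutive cytosolic form, was the most abundant member of all, with 7303 and 7560 TPM in shScramble and 6385 and 6268 TPM in shYthdf2. Both knockdown libraries were below both controls (log2 fold change -0.19, SE 0.10, 95% interval -0.43 to 0.04, edgeR adjusted p = 0.335), and without the first shYthdf2 library the adjusted p was 0.0379 at a log2 fold change of -0.28, while without the second it was 0.467 at -0.11. Its inducible paralog Hsp90aa1 had 3591 and 4032 against 3552 and 3877 TPM and its groups overlapped (log2 fold change -0.00, SE 0.10). The ratio of Hsp90ab1 to Hsp90aa1 was 2.03 and 1.88 in shScramble and 1.80 and 1.62 in shYthdf2, so the groups were apart by less than the gap within either of them. Of the 150-base windows of Hsp90aa1, 23.6% also occur in the pseudogene Gm12346 (28.4% in any other gene), while Hsp90ab1 shared none, so part of the reads of Hsp90aa1 could have been left out in every library. Hsp90b1, the ER form, was at 576 and 598 against 547 and 567 TPM (-0.04, SE 0.10).

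**Figure D3:**
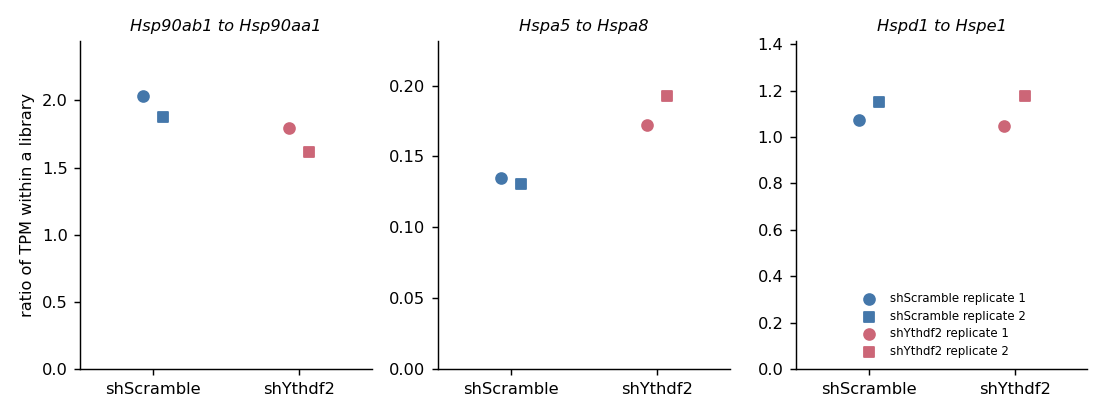
Ratio of TPM between pairs of chaperone genes within each library (y axis, no unit, from 0), for shScramble in blue and shYthdf2 in red. The ratio of Hspa5 to Hspa8 lies between 0.130 and 0.135 in shScramble and between 0.172 and 0.193 in shYthdf2, the ratio of Hsp90ab1 to Hsp90aa1 is lower in both red libraries, and the ratio of Hspd1 to Hspe1 overlaps between the groups.

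For the mitochondrial folding chamber no difference passed the test. Hspd1, which encodes HSP60, stood at 1144 and 1159 TPM in shScramble and 1153 and 1160 TPM in shYthdf2, with a log2 fold change of 0.04 (SE 0.10, 95% interval -0.18 to 0.27). Hspe1, which encodes the HSP10 lid of that chamber, stood at 1064 and 1008 against 1100 and 986 TPM (0.05, SE 0.12). The genes that share the heat shock element printed above were thus counted at nearly equal levels. The ratio of Hspd1 to Hspe1 was 1.07 and 1.15 in shScramble and 1.05 and 1.18 in shYthdf2. Of their 150-base windows, 16.1% for Hspd1 and 6.64% for Hspe1 also occur in other genes. Reads left out of either gene could change this ratio in every library, and how many were lost was not tested.

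The small heat shock protein class was Hspb1 and little else. Hspb1, which encodes HSP25 in the mouse, had 1733 and 1702 TPM in shScramble and 1832 and 1641 TPM in shYthdf2, 98.1% of the summed TPM of its class, with overlapping groups (log2 fold change 0.06, SE 0.12). Of the 150-base windows of Hspb1, 39.1% also occur in Hsp25-ps1, so part of its reads could have been left out in every library. The class median of -0.51 over the 6 tested genes came from the low ones, and it was -0.24 with a filter at a mean of 1 CPM and -0.32 without shScramble replicate 2. Hspb2, a muscle-enriched relative, had 25 and 43 reads against 8 and 23 (log2 fold change -1.21, SE 0.64, adjusted p = 0.318), and 30% of its exon bases overlap Cryab on the opposite strand, where the counting set no strand. The other lower ones, Hspb6, Hspb7 and Hspb11, were at -0.55 (SE 0.33), -0.50 (SE 0.63) and -0.52 (SE 0.31), and none passed the test. All were below both controls, as was Hspb2, so that 4 of the 6 tested genes of the class were, beside 25.5% of all genes tested. Their counts were low. Hspb7 was counted 16 and 18 times in the controls but 10 and 15 times after knockdown, and Hspb6 and Hspb11 at most 106 times in any library. Hspb11 is placed here by its name and is known as a protein of cilium transport. Hspb8, which works with BAG3 in autophagy, was at 16.6 and 33.0 against 25.7 and 28.0 TPM.

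Among the J-proteins, the DNAJA class, the general partners of HSP70, had no gene past the test. Dnaja1 was at 285 and 255 TPM in shScramble and 277 and 261 in shYthdf2 (log2 fold change 0.03, SE 0.12), Dnaja2 was at 213 and 207 against 201 and 207 TPM, and the class median was 0.02. The low Dnaja4 was between 0.972 and 2.33 TPM. The mitochondrial Dnaja3 was higher in both knockdown libraries, 79.3 and 81.6 against 86.7 and 93.2 TPM, with a log2 fold change of 0.20 that did not pass the test (adjusted p = 0.323).

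The DNAJB class had a median of 0.20 over 11 tested genes, which was 0.35 without shYthdf2 replicate 2. Of these genes 6 were above both controls and 1 below, where 26.2% and 25.5% of all genes tested were. In summed TPM the class stood at 359 and 347 in shScramble and 398 and 389 in shYthdf2. Dnajb6 (chr5:29735898-29786478), a suppressor of polyglutamine aggregation whose promoter stretch is printed above, was its most abundant gene, with 241 and 237 CPM against 308 and 273 CPM (log2 fold change 0.28, SE 0.11, adjusted p = 0.17, and 0.0181 without shYthdf2 replicate 2). Dnajb5 (chr4:42949867-42959425) came closest of all members to the adjusted threshold. Its 23.2 and 22.3 CPM in shScramble and 36.2 and 31.4 CPM in shYthdf2 did not overlap, and the log2 fold change was 0.57 (SE 0.14, 95% interval 0.26 to 0.89), with an adjusted p of 0.0561 in edgeR (0.00486 without shYthdf2 replicate 2) and 0.0118 in DESeq2. Dnajb14, a membrane J-protein of the ER, had 13.1 and 12.6 against 16.6 and 21.6 CPM (0.57, SE 0.18, adjusted p = 0.117, and 0.0292 at a log2 fold change of 0.75 without shYthdf2 replicate 1 but 0.37 at a log2 fold change of 0.37 without replicate 2). Dnajb4, a cytosolic relative of Dnajb1, went the other way.

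Dnajb4 (chr3:152181580-152210432) had 9.91 and 12.5 CPM in shScramble and 5.50 and 7.52 CPM in shYthdf2. Both knockdown libraries were below both controls, with a log2 fold change of -0.78 (SE 0.24) and an adjusted p of 0.0999 in edgeR and 0.0411 in DESeq2. In edgeR it passed without shScramble replicate 1 (-0.94, adjusted p = 0.0226) and without shYthdf2 replicate 2 (-1.03, adjusted p = 0.00986). Dnajb1, the major inducible partner of HSP70 and a classical HSF1 target, was at 79.5 and 76.7 against 92.2 and 86.2 CPM, higher in both knockdown libraries without passing the test (0.19, SE 0.11, adjusted p = 0.348). Dnajb9, an ER J-protein that rises in the unfolded protein response, was at 19.8 and 18.0 against 18.0 and 17.8 CPM (-0.08, SE 0.16).

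The DNAJC class joins proteins that share little but the J domain, and its median over 27 tested genes was 0.04. Dnajc8, linked to splicing, was its most abundant gene at 480 and 489 TPM in shScramble and 485 and 488 TPM in shYthdf2, a log2 fold change of 0.04 with a 95% interval from -0.18 to 0.27. In this class 5 genes had an unadjusted p under 0.05, 4 higher and 1 lower of 27, where 11.0% and 9.80% of all genes tested were.
Dnajc6 (chr4:101496648-101642799), which encodes auxilin, a clathrin-uncoating protein known from neurons, had 22.7 and 21.6 CPM in shScramble and 29.2 and 45.8 CPM in shYthdf2. Its log2 fold change was 0.76 (SE 0.20). The adjusted p was 0.0657 in edgeR, 1.34e-04 there with no filter, 0.0060 in DESeq2 and 0.0831 in limma-voom. The gap between its knockdown libraries was wider than that between the first of them and the controls. Without the second shYthdf2 library the log2 fold change was 0.40 (adjusted p = 0.177), and without the first it was 1.05 (adjusted p = 4.3e-06). It also passed without shScramble replicate 1 (0.80, adjusted p = 0.00577) or replicate 2 (0.72, adjusted p = 0.0194). The second is also the library with the higher sum of 2C-like markers, and whether the difference goes with those cells was not tested.

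Dnajc9 (chr14:20384638-20388910), a histone chaperone that also recruits HSP70, had 64.4 and 63.7 CPM in shScramble and 88.6 and 78.9 CPM in shYthdf2 (log2 fold change 0.39, SE 0.11, adjusted p = 0.0879 in edgeR, 0.0109 there without shYthdf2 replicate 2, and 0.0422 in DESeq2). Dnajc11, a protein of the mitochondrial membrane contact machinery, had 168 and 141 against 207 and 190 CPM (0.37, SE 0.12, adjusted p = 0.116, and 0.00647 without shYthdf2 replicate 2). Dnajc25 had 9.0 and 6.98 against 12.9 and 10.8 CPM (0.57, SE 0.22, adjusted p = 0.174). In these genes both knockdown libraries were above both controls.

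Dnajc1, a J-protein of the ER membrane, was the lower of these 5 genes, with 18.9 and 20.8 CPM in shScramble and 14.7 and 14.8 CPM in shYthdf2 (log2 fold change -0.42, SE 0.16, adjusted p = 0.175), and 13.4% of its exon bases overlap Mllt10 on the opposite strand. Dnajc30 and Dnajc22 had larger fold changes on few reads. Dnajc30, a mitochondrial J-protein, had 64 and 36 reads against 82 and 88 (0.73, SE 0.37), and 65% of its exon bases overlap Bud23 on the opposite strand. Dnajc22 had 77 and 120 reads against 40 and 89 (-0.69, SE 0.44), with overlapping groups. Dnajc3, a J-protein of the ER lumen and a bearer of the ER stress element, was at 49.1 and 51.3 against 50.7 and 56.6 CPM (0.09, SE 0.12).

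**Figure D4:**
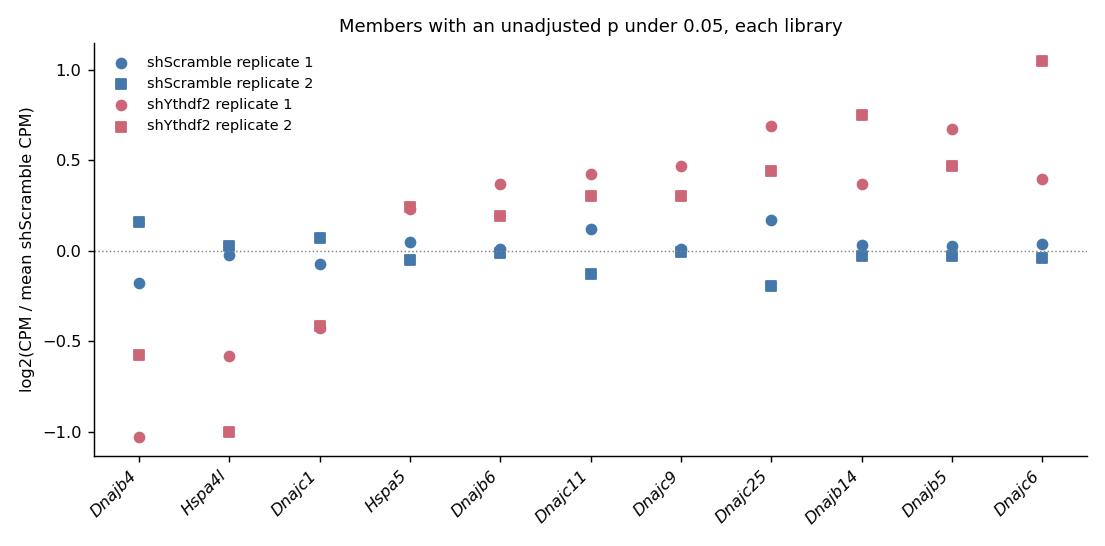
Each library's level of the 11 members with an unadjusted p under 0.05, as log2 of CPM over the mean of the shScramble libraries (y axis), with genes on the x axis ordered by fold change, shScramble in blue and shYthdf2 in red. In every gene the red points lie on the same side of both blue points, and Dnajc6 shows the widest gap between its red points. The genes were chosen by their p in these same libraries, which favours such a separation. Over all genes tested, both shYthdf2 libraries stood above both controls in 26.2% and below in 25.5%.

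Neither heat shock factor passed the test. Hsf1 had 62.2 and 52.2 CPM in shScramble and 69.2 and 56.5 CPM in shYthdf2 (log2 fold change 0.13, SE 0.14), and its groups overlapped. Hsf2, a relative active in development, had 46.5 and 40.6 against 39.1 and 38.6 CPM (-0.17, SE 0.13, adjusted p = 0.506), with both knockdown libraries below both controls. Of 5 tested genes among HSF regulators and other HSF genes, 0 were called in either direction, where 2.43% of all genes tested were higher and 1.49% lower.

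The other genes of the pathway were read from lists that overlap the members in part. Over all genes tested, 2.43% were higher and 1.49% lower at the adjusted threshold, and 11.0% and 9.80% at an unadjusted p under 0.05. Of 22 HSF1 target genes, 0 passed the adjusted edgeR threshold in either direction and the median was 0.05. At an unadjusted p under 0.05 Serpinh1, the collagen chaperone HSP47, was higher (34.1 and 34.2 against 44.7 and 40.9 CPM), and Hspa4l and Chordc1, a partner of HSP90, were lower. Of 17 HSP70 co-chaperones 0 passed, with a median of 0.00342, and Grpel1 was higher and St13 lower at the unadjusted level. Of 20 tested HSP90 co-chaperones, 1 was higher and 0 were lower, with a median of 0.01. The gene that rose was Pih1d1, a subunit of the R2TP complex that works with HSP90, from 36.2 and 36.6 CPM in shScramble to 54.2 and 49.3 CPM in shYthdf2 (log2 fold change 0.51, SE 0.12, adjusted p = 0.0484), and it passed under 7 of 13 alternative settings. Rpap3, another subunit of that complex, was lower at the unadjusted level (62.1 and 61.1 against 47.2 and 48.2 CPM, edgeR adjusted p = 0.0973). It passed the adjusted threshold under 1 of 13 alternative settings. Ppp5c was also higher in this list at the unadjusted level, and Cdc37l1 and Chordc1 were lower.

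By compartment, the 11 ER-located members had a median of 0.09, with 4 above both controls and 1 below, where 26.2% and 25.5% of all genes tested were. Of the genes with the ER stress element, Hspa5 was higher in both knockdown libraries, and the groups of Dnajc3 overlapped. Those of Hsp90b1 overlapped in CPM (620.4 and 622.9 in shScramble against 623.4 and 588.1 in shYthdf2). In TPM both knockdown libraries of Hsp90b1 were below both controls. The 15 ER stress genes outside the families had a median of 0.17, with 11 positive, where 50.2% of all genes tested were, and with 8 above both controls and 1 below, where 26.2% and 25.5% were. Of the 15, 0 passed the adjusted threshold in either direction, where 2.43% of all genes tested were higher and 1.49% lower. Calr, a lectin chaperone, stood at 755 and 716 against 908 and 822 CPM and Manf, a secreted ER stress protein, at 127 and 131 against 155 and 158 CPM, each at an unadjusted p under 0.05 (adjusted p 0.237 and 0.155). Ddit3, the stress effector CHOP, was at 5.86 and 4.25 against 6.73 and 6.57 CPM and Atf4 at 110 and 76.9 against 110 and 64.2 CPM. Of the 8 mitochondrial members 7 had a positive log2 fold change (50.2% of all genes tested did), with a median of 0.12. The adjusted threshold was passed by 0 of them (2.43% higher and 1.49% lower over all genes tested).

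The pseudogene rows carried few reads. Hspd1-ps3 was at 16.9 and 20.7 TPM in shScramble and 21.2 and 21.1 TPM in shYthdf2, and 26.8% of its 150-base windows also occur in Hspd1. Whether reads of this row or of its parent gene were left out as placed at several positions was not tested. No pseudogene row passed the adjusted threshold.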

How the data were processed

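The authors deposited a table of raw read counts per gene with gene lengths, made with featureCounts 2.0.3 on mm10 after fastp 0.19.4 and HISAT2 2.2.1, per the file headers and the submitters' processing notes (which also name DESeq2 1.40.2). Pairs were not joined, so each count is a read, no strand option was set, and reads at several positions or over several genes were left out by default. All 4 count columns were used and 0 other columns of samples were present. Counts were tested with edgeR 4.0.16 (R 4.3.3): TMM scaling, filterByExpr (minimum count 10, total 15), the quasi-likelihood F test, two-sided, no covariate, and Benjamini-Hochberg adjustment over 18341 genes. The code was tested on simulated data. DESeq2 1.42.0 and limma 3.58.1 served as alternatives, with other scalings and filters, halved counts, a replicate block and leaving out each library. TPM was computed from counts and the deposited length. Standard errors were derived from each fold change and F value. With 31113006 to 36422510 reads per library, a gene without reads is bounded by 3 reads (0.082 to 0.096 CPM), which covers counting error only.

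Members and lists were chosen with earlier results of these data known. Named genes are members under an adjusted or unadjusted p of 0.05, the most abundant of each class, a list of 18 core chaperones and factors, the 5 largest fold changes at a mean of at least 1 CPM, and list genes past the threshold. Other genes were named after their values were seen. Proteins were not analysed here.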

Additional observations from a re-analysis of the deposited data

How the results depend on the processing

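The count of 0 members higher and 0 lower held under RLE, library total and upper quartile scaling, a filter at a mean of 1 CPM, halved counts and limma-voom. It became 4 higher (Dnajb5, Dnajc6, Dnajc9 and Dnajc11) and 2 lower (Hspa4l and Dnajb4) with no filter, beside 3.58% and 2.76% of all genes. In DESeq2 it was 3 and 2, the same genes without Dnajc11, beside 5.55% and 4.22%. Leaving out each library in turn gave 1 to 4 members higher and 0 to 3 lower (4 and 2 without shYthdf2 replicate 2, beside 6.05% and 5.73% of all genes, 2 and 3 without shYthdf2 replicate 1, beside 3.28% and 2.67%, 1 and 2 without shScramble replicate 1, beside 3.56% and 3.04%, and 1 and 0 without shScramble replicate 2, beside 2.75% and 1.54%). The cause was not tested.

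The groups share replicate numbers, which the labels do not describe as pairs. Deviations of same-numbered libraries correlated at 0.225 over all genes tested and 0.563 over the 73 members, and a fit with the replicate number as a block called 7 members higher and 5 lower, beside 10.1% and 9.13% of all genes. In the same fit the log2 fold change of Hsp90aa1 was 0.00083.

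Leaving out each library in turn, the median log2 fold change ran from -0.021 to 0.077 for all members, -0.19 to 0.19 for HSP70, -0.081 to 0.0041 for HSP90, -0.64 to -0.32 for the small heat shock proteins, 0.0061 to 0.092 for DNAJA, 0.14 to 0.35 for DNAJB and -0.020 to 0.11 for DNAJC. The median of the small heat shock proteins was -0.24 with the filter at 1 CPM, which leaves fewer genes.

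Leaving out 1 library changed the sign of 31 of the 73 tested members, whose log2 fold changes with all libraries were at most 0.33 in size. Of 416 values of the 32 members named by rule under the alternatives, 359 kept direction and side of the threshold, 38 came past it and 19 changed sign. Of these 32, leaving out each library in turn changed the sign of 12, which ran from -0.0068 to 0.076 for Hspa4, -0.0065 to 0.18 for Hsph1, -0.021 to 0.11 for Hspd1, -0.10 to 0.19 for Hspe1, -0.097 to 0.20 for Hspb1, -0.080 to 0.14 for Dnaja1, -0.020 to 0.11 for Dnajc8, -0.019 to 0.27 for Hsf1, -0.70 to 0.28 for Hspa1a, -0.018 to 0.077 for Hspa9, -0.057 to 0.060 for Hsp90aa1 and -0.081 to 0.0042 for Hsp90b1. Hsp90aa1 was at 0.0040 with no filter and 0.0014 in limma-voom.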
